A study of Mus musculus with 12 samples.

Results

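Laminins, nidogens and basement membrane proteoglycans were followed through mouse trigeminal ganglion cultures that had received different microRNAs. The 10 genes were taken by name: the laminin alpha chains Lama2, Lama4 and Lama5, the beta chains Lamb1 and Lamb2, the gamma chain Lamc1, the nidogens Nid1 and Nid2, and the proteoglycans Hspg2 (perlecan) and Agrn (agrin). All 10 were measured, each by 1 probe, among 19572 probes that carry a single gene symbol. No filter on low values was applied. The choice of these 10 genes was made with earlier results of these data known.

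Primary neurons of the trigeminal ganglion (TG), which holds the sensory neurons of the face, were cultured on coverslips coated with laminin and transfected with miR-21, with miR-34a, with miR-324 or with scramble miRNAs. The design set each microRNA against scramble. Total RNA was hybridised to 12 Clariom S Mouse arrays, 3 per group, and values are log2 signals, on which a difference of 1 is a 2-fold change. The labels give no genotype, strain, age, dose or time after transfection, and they do not say that replicates came from separate animals or cultures. Each p-value is therefore set by how far these samples differ, and that spread may be technical. The microRNAs were added to the whole culture, and the scramble cultures shared the coating and the transfection.

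Basement membranes are thin sheets of extracellular matrix built on a laminin polymer and a network of type IV collagen. Each laminin is a trimer of an alpha, a beta and a gamma chain. Nidogens bind both laminin and type IV collagen, and perlecan and agrin carry heparan sulfate chains that hold growth factors. In peripheral nerve each axon and Schwann cell unit lies in a basement membrane rich in the trimer of Lama2, Lamb1 and Lamc1, which Schwann cells bind through dystroglycan and integrins.

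The microRNAs are shown because they define the groups. A microRNA pairs with its targets mainly through its seed, bases 2 to 8, in capitals below. The labels do not name the arm of each precursor, so the 5p arms of the first pair and both arms of miR-324 are given, from RefSeq on GRCm38.p6.
mmu-miR-21a-5p, chr11:86584120-86584141, minus strand: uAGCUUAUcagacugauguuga
mmu-miR-34a-5p, chr4:150068473-150068494, plus strand: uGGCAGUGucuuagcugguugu
mmu-miR-324-5p, chr11:70012060-70012082, plus strand: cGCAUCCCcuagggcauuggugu
mmu-miR-324-3p, chr11:70012095-70012114, plus strand: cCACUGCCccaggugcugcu
No seed is shared among these 4 sequences, but the seeds of mmu-miR-34a-5p and mmu-miR-324-3p are reverse complements of each other.

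The arrays did not fall cleanly into the 4 groups, which bears on every result below. Some array labels carry a suffix whose meaning is not given. The letters A and B are names used here for these suffixes and are not in the labels. Suffix A marks scramble 1 and 2 and miR-34a 1 and 2, and suffix B marks scramble 3 and miR-324 2. Only the labels with suffix B also hold the word mimic. The other 6 arrays, all 3 miR-21 arrays among them, have no suffix. miR-21 and scramble share no suffix, so for that comparison the suffix and the microRNA cannot be told apart within a suffix. The Y-linked gene Eif2s3y lay at 7.09 to 7.85 on the miR-21 arrays, 2.27, 2.79 and 8.53 on the miR-34a arrays, 7.88, 2.96 and 5.13 on the miR-324 arrays and 2.13 to 2.93 on the scramble arrays. The pituitary hormone gene Prl lay at 14.26 to 15.17 on the miR-324 arrays and at 14.92 on scramble 3, against 3.37 to 4.83 on the other 8 arrays. The proliferation gene Mki67 lay at 12.28 to 12.63 on the miR-21 arrays and at 7.02 on scramble 3, against 10.93 and 10.49 on scramble 1 and 2. Fits with the suffix as a block, with Eif2s3y as a term and without single arrays are given beside the results they bear on. The part of Prl and Mki67 in the results on the 10 genes was not tested.

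In miR-21 cultures 5 of the 10 genes rose against scramble: Hspg2, Lama2, Agrn, Lamc1 and Lamb1. Over all probes tested 134 of 19572 rose, 0.685%. None of the 10 fell. Their differences ranged between 0.47 and 3.75 on the log2 scale with a median of 1.58, against a median of 0.13 over all genes. The miR-21 and scramble arrays did not overlap for 8 of 10 genes, all higher with miR-21, against 16.9% of all genes. In these bulk RNA samples more cells of a type and more RNA per cell cannot be told apart.

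**Figure D1:**
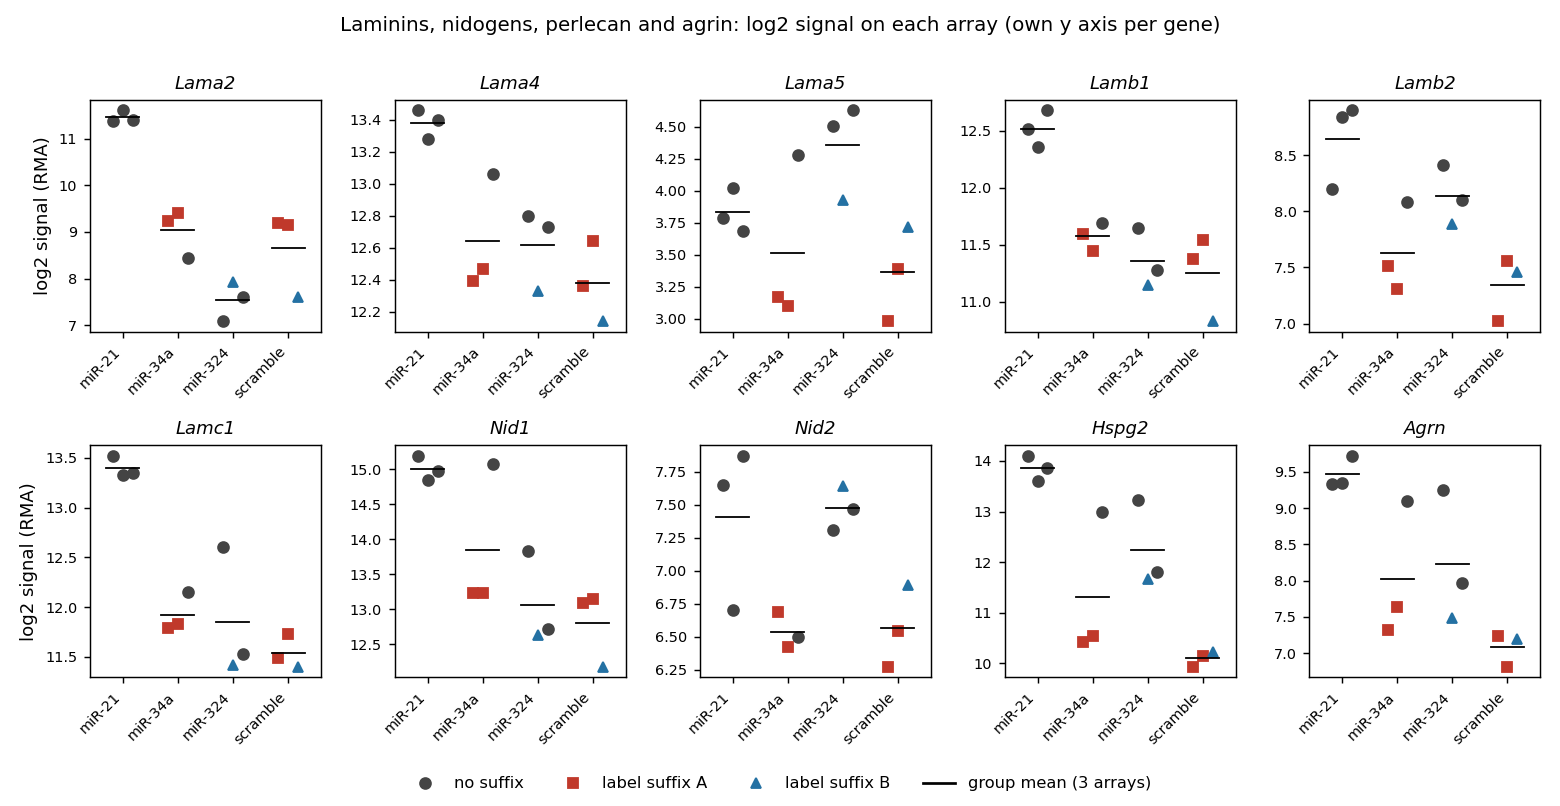
Log2 signal (vertical axis, 1 scale per gene) of each of the 10 genes on each array, with the groups along the horizontal axis, a bar at each mean of 3 arrays, and circles for arrays without a suffix, squares for suffix A and triangles for suffix B. The 3 miR-21 points of Hspg2, at 13.60 to 14.10, lie above the scramble points at 9.93 to 10.23, and miR-34a 3 stands above the other miR-34a arrays in Hspg2, Agrn and Nid1 and below them in Lama2.

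The chains of the Schwann cell laminin are taken first. Lama2 encodes the alpha chain that binds dystroglycan, and loss of it causes muscular dystrophy with a neuropathy in mice. Its level was 11.37, 11.61 and 11.40 on the miR-21 arrays, against 9.19, 9.15 and 7.61 on the scramble arrays. The groups did not overlap, and scramble 3 lay well below the other scramble arrays. The difference was 2.81 ± 0.41 (SE), a 7.01-fold rise (adjusted p = 0.0140).

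Lamb1, the common beta chain of nerve laminins, had a level of 12.52, 12.36 and 12.68 on the miR-21 arrays, against 11.38, 11.54 and 10.83 on the scramble arrays. Its groups were separate, with a smaller gap than that of Lama2. The difference was 1.27 ± 0.24 (SE), a 2.41-fold rise (adjusted p = 0.0293). Lamc1 encodes the gamma chain shared by most laminins, with a level of 13.52, 13.33 and 13.35 on the miR-21 arrays, against 11.49, 11.73 and 11.40 on the scramble arrays. The arrays within each group lay close together, and the groups were separate. The difference was 1.86 ± 0.29 (SE), a 3.63-fold rise (adjusted p = 0.0170).

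The proteoglycans follow. Hspg2 encodes perlecan, a large heparan sulfate proteoglycan of vascular, neural and muscle basement membranes. Its level was 14.10, 13.60 and 13.86 on the miR-21 arrays, against 9.93, 10.14 and 10.23 on the scramble arrays. Every miR-21 array lay above every scramble array, and the difference of 3.75 ± 0.59 (SE) was a 13.5-fold rise (adjusted p = 0.0172). Agrn encodes agrin, which clusters acetylcholine receptors at the neuromuscular junction and is also made by glia. Its level was 9.33, 9.35 and 9.72 on the miR-21 arrays, against 7.24, 6.81 and 7.20 on the scramble arrays. The groups did not overlap. The difference was 2.38 ± 0.48 (SE), a 5.22-fold rise (adjusted p = 0.0397).

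The other 5 genes did not pass the test. Nid1, the major nidogen, had a level of 15.19, 14.84 and 14.98 on the miR-21 arrays, against 13.09, 13.15 and 12.18 on the scramble arrays, with no overlap. The difference was 2.20 ± 0.49 (SE), adjusted p = 0.0558. Lamb2, the beta chain of synaptic and kidney laminins, differed by 1.30 ± 0.28 (SE), adjusted p = 0.0514, and its groups did not overlap either. Lama4, an alpha chain of vessels and nerve, averaged 13.38 ± 0.09 with miR-21 and 12.38 ± 0.25 with scramble (SD, n = 3 each), a difference of 1.00 with adjusted p = 0.0716 in the limma fit. The smallest differences in the family were those of Nid2, at 0.84 (adjusted p = 0.185), and of Lama5, at 0.47 (adjusted p = 0.498), and only these pairs of groups overlapped. Lama5 lay low on all arrays, at 2.98 to 4.63, with its mean at percentile 16.5 of the named probes, so a change in it is hard to read.

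**Figure D2:**
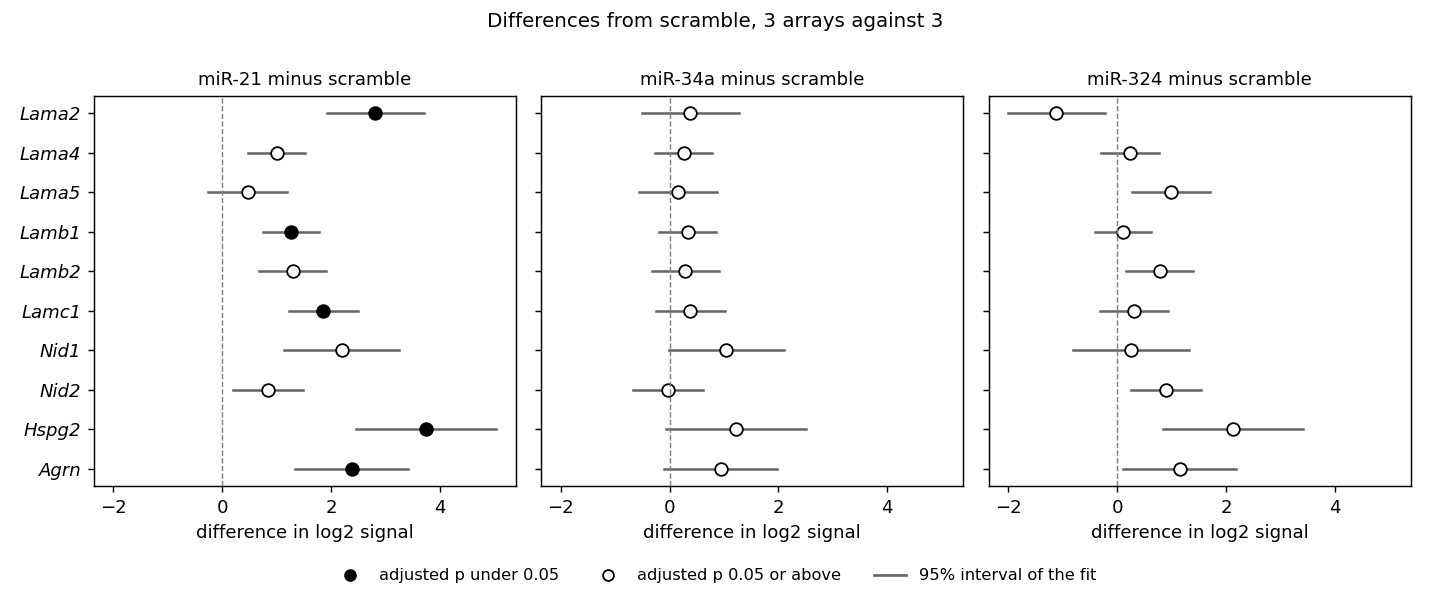
Difference in log2 signal (horizontal axis) of the 10 genes (rows) between each microRNA and scramble, 1 panel per microRNA, with 95% intervals and filled points where the adjusted p is under 0.05. Filled points stand only in the miR-21 panel, at Hspg2, Lama2, Agrn, Lamc1 and Lamb1.

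The calls rest on few arrays. With 1 array left out at a time, Lama2 passed in the 3 fits without a scramble array and in none without a miR-21 array, with adjusted p between 0.0221 and 0.0664. Hspg2 and Lamc1 passed only without scramble 2 or 3, with adjusted p of 0.0466 to 0.0879 and 0.0474 to 0.0871. Lamb1 passed only without scramble 2, and Agrn in none of the 6. No fit of these 6 changed the sign of any of the 5 differences. With the suffix as a fixed block, which ties miR-21 to scramble only through the miR-34a and miR-324 arrays, Lama2 alone was called among the 10, at 3.73 (adjusted p = 0.000121), while 2.10% of all genes rose. Hspg2 then stood at 1.95 (adjusted p = 0.0550) and Agrn at 0.96 (adjusted p = 0.382). With Eif2s3y as a term in the fit, Lama2, at 3.50, and Hspg2, at 1.87, were called, against 0.107% of all genes that rose. Eif2s3y was high on every miR-21 array (7.09 to 7.85) and low on every scramble array (2.13 to 2.93). The term therefore rests mainly on the miR-34a and miR-324 arrays, where Eif2s3y varied within the group. Between miR-21 and scramble, Eif2s3y and the microRNA cannot be told apart.

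Genes that build the same matrix or bind it gave no call in this comparison. None of the 4 other laminin chains, 6 type IV collagen chains, 16 other basement membrane proteins, 14 receptors of laminin, agrin and perlecan and 16 heparan sulfate enzymes measured passed the test in the limma fit, with 1, 2, 5, 8 and 5 of them at an unadjusted p under 0.05, against 16.6% of all genes. Col4a1, a chain of the collagen found in nearly all basement membranes, was at 9.19, 9.24 and 9.27 on the miR-21 arrays, against 7.37, 8.04 and 7.43 on the scramble arrays. Its 1.62 ± 0.51 (SE) higher level, like the 1.74 ± 0.70 of its partner Col4a2, did not pass (adjusted p = 0.141 and 0.244). Dag1 encodes dystroglycan, the receptor for the Lama2 chain, agrin and perlecan, and stood at 16.69, 16.39 and 16.84 with miR-21, against 13.98, 14.31 and 13.17 with scramble. These groups did not overlap, and the difference of 2.82 ± 0.66 (SE) missed the threshold (adjusted p = 0.0641). Itgb1, the beta subunit of most laminin-binding integrins, was 1.12 higher (adjusted p = 0.174). The receptors went both ways: of the 14, 9 averaged higher and 5 lower, between -1.97 and 2.82, with a median of 0.60.

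miR-34a gave no call. None of the 10 genes, and none of 19572 genes over all (0%), differed from scramble in the limma fit, and none of the 10 reached an unadjusted p under 0.05, against 1.46% of all genes. The median difference over the 10 was 0.36, against 0.04 over all genes, and 4 of 10 did not overlap, all higher with miR-34a, against 3.49% of all genes. Hspg2 had a level of 10.42, 10.54 and 13.00 on the miR-34a arrays, against 9.93, 10.14 and 10.23 on the scramble arrays. Nid1 had 13.23, 13.23 and 15.08 on the miR-34a arrays, against 13.09, 13.15 and 12.18 on the scramble arrays. In both genes miR-34a 3 lay far above the other miR-34a arrays.

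The arrays miR-34a 1 and 2 and scramble 1 and 2 share suffix A, so they allow a comparison inside a suffix. There the differences of the 10 genes ran between -0.07 and 0.455 with a median of 0.135, and none passed in a limma fit of those 4 arrays (0% of all genes). Of the 10, 5 did not overlap, all higher with miR-34a, against 14.3% of all genes. miR-34a 3, which has no suffix and high Eif2s3y, lay above the mean of miR-34a 1 and 2 by 2.52 in Hspg2, 1.85 in Nid1, 1.62 in Agrn and 0.34 in Lamc1. Lama2 went the other way on that array, at 8.45 against 9.24 and 9.41, a difference of -0.88. Lama2 thus lay below, and Hspg2, Agrn and Nid1 above, the other arrays of the group.

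miR-324 gave no call either, with 0% of all genes passing. Among the 10 genes 6 had an unadjusted p under 0.05, against 14.7% of all genes, and the adjusted p-values ran between 0.309 and 0.843. The groups did not overlap for 5 of 10, all higher with miR-324, against 12.6% of all genes, and the median difference was 0.55, against 0.09 over all genes. Hspg2 had a level of 13.23, 11.66 and 11.81 on the miR-324 arrays, against 9.93, 10.14 and 10.23 on the scramble arrays, without overlap. Its difference was 2.13 (adjusted p = 0.309 in the limma fit). The 95% interval of 0.85 to 3.42 is not adjusted for the number of genes tested.

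Lama2 was the member lower in the miR-324 mean. Its level was 7.08, 7.93 and 7.60 on the miR-324 arrays, against 9.19, 9.15 and 7.61 on the scramble arrays. The groups overlapped because scramble 3 lay among the miR-324 arrays. The difference was -1.11 (adjusted p = 0.313), and without scramble 3 it was -1.63 with adjusted p = 0.0422. Over all genes, the fits of this comparison that left out 1 array gave 0 to 383 called, against 0 on all arrays. Scramble 3 is the scramble array with high Prl (14.92) and with suffix B. Without it the miR-324 arrays stand against scramble 1 and 2 alone, which share no suffix with them. Between the 2 arrays with suffix B, miR-324 2 lay 0.32 above scramble 3 in Lama2 and 1.43 above it in Hspg2. Hspg2 was then the only member over 1 on the log2 scale, against 2.88% of all genes, and this pair has no replicate check. Levels moved likewise between miR-324 arrays: Agrn was at 9.25 on miR-324 1, which has high Eif2s3y, and at 7.48 and 7.97 on the other two.

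**Figure D3:**
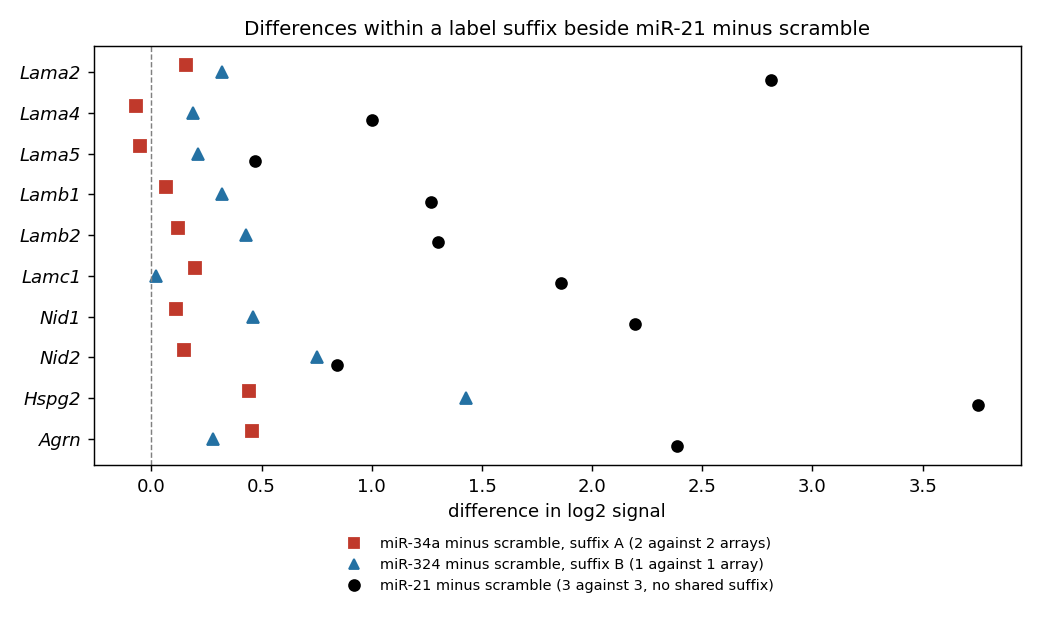
Difference in log2 signal (horizontal axis) of the 10 genes (rows), as squares for miR-34a minus scramble within suffix A (2 arrays against 2), triangles for miR-324 minus scramble within suffix B (1 against 1) and circles for miR-21 minus scramble (3 against 3, no shared suffix). The squares lie between -0.07 and 0.455, and the triangle of Hspg2 is at 1.43.

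The 3 comparisons with scramble share the scramble arrays, so the microRNAs were also set against each other. Against miR-21, Lama2 fell in miR-34a cultures, the only member of 10 to pass, against 0.0715% of all genes that fell. The level was 9.24, 9.41 and 8.45 on the miR-34a arrays, against 11.37, 11.61 and 11.40 on the miR-21 arrays. The groups did not overlap and the difference was -2.43 ± 0.41 (SE), adjusted p = 0.0448. Among the 10 genes 8 did not overlap, all lower with miR-34a, against 10.9% of all genes. Leaving out arrays moved the call: it held without miR-34a 3 and was lost in the other 5 fits, with adjusted p of 0.0234 to 0.170. Without miR-34a 3, 6 members passed, namely Hspg2, Agrn, Lama2, Lamb2, Lamc1 and Nid1, and 1.48% of all genes then fell, with 537 genes called in either direction, against 31 on all arrays. On the arrays without a suffix, miR-34a 3 alone stands for its group, and the difference in Lama2 was -3.01 (adjusted p = 0.00511), while 1.33% of all genes fell. The lone sample is there assumed to vary like the other groups. Lama2 was the member called also with the suffix as a fixed block, at -3.29 with 3.21% of all genes that fell, and as a random block, at -2.81 with 0.0817%.

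Against miR-21, 3 of the 10 genes fell in miR-324 cultures, Lama2, Lamc1 and Lamb1, against 1.31% of all genes that fell. Lama2 stood at 7.08, 7.93 and 7.60 on the miR-324 arrays, against 11.37, 11.61 and 11.40 on the miR-21 arrays, a gap wider than the whole range within either group. Its difference was -3.92 ± 0.41 (SE), 15.2-fold (adjusted p = 0.00287), and it passed in all 6 fits that left out 1 array, with adjusted p of 0.00769 to 0.0197. Lamc1 was at 12.60, 11.42 and 11.53 with miR-324, against 13.52, 13.33 and 13.35 with miR-21, a difference of -1.55 ± 0.29 (SE), adjusted p = 0.0178. Lamb1 was at 11.65, 11.15 and 11.28 with miR-324, against 12.52, 12.36 and 12.68 with miR-21, a difference of -1.16 ± 0.24 (SE), adjusted p = 0.0262. These 3 chains form the trimer named above, and the trimer itself was not tested. The calls of Lamc1 and Lamb1 held only without miR-324 1, with adjusted p up to 0.0892 and 0.110 in the other fits. Among the 10, 7 did not overlap, all lower with miR-324, against 13% of all genes.

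On the arrays without a suffix, miR-324 1 and 4 against the miR-21 arrays, Lama2 was at -4.12 (adjusted p = 0.000248) and Nid1 at -1.73 (adjusted p = 0.0252), 2 members of 10, while 2.52% of all genes fell. Lamb1 and Lamc1 did not pass there (adjusted p = 0.0799 and 0.0713). On all 12 arrays with the suffix as a block, Lama2, Lamb1, Lamc1 and Nid1 passed, both as a fixed block, with 4.06% of all genes that fell, and as a random block, with 2.24%. Lamb1 was then at -1.0 and -1.09, Lamc1 at -1.35 and -1.46 and Nid1 at -1.49 and -1.74 (fixed block first). Of the basement membrane proteins outside the 10, Egflam (pikachurin, a dystroglycan ligand of the retina) and Frem1 fell in miR-324 cultures against miR-21, by 2.29 and 1.06 on the log2 scale (adjusted p = 0.0234 and 0.0421). These were 2 of 16 measured, against 1.31% of all genes that fell. Between miR-34a and miR-324 no member passed (0% of all genes in the limma fit), 3 of 10 had an unadjusted p under 0.05 against 13% of all genes, and the median difference was -0.10, against -0.03 over all genes. Lama2 was 1.50 higher with miR-34a, with a 95% interval of 0.61 to 2.39. Nid2 differed by -0.94, with an interval between -1.58 and -0.29. Lama5, which lay low on all arrays, was 0.84 lower, with an interval that ran between -1.56 and -0.12. These intervals are not adjusted for the number of genes tested, and the adjusted p-values of the limma fit were 0.318, 0.319 and 0.344.

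**Figure D4:**
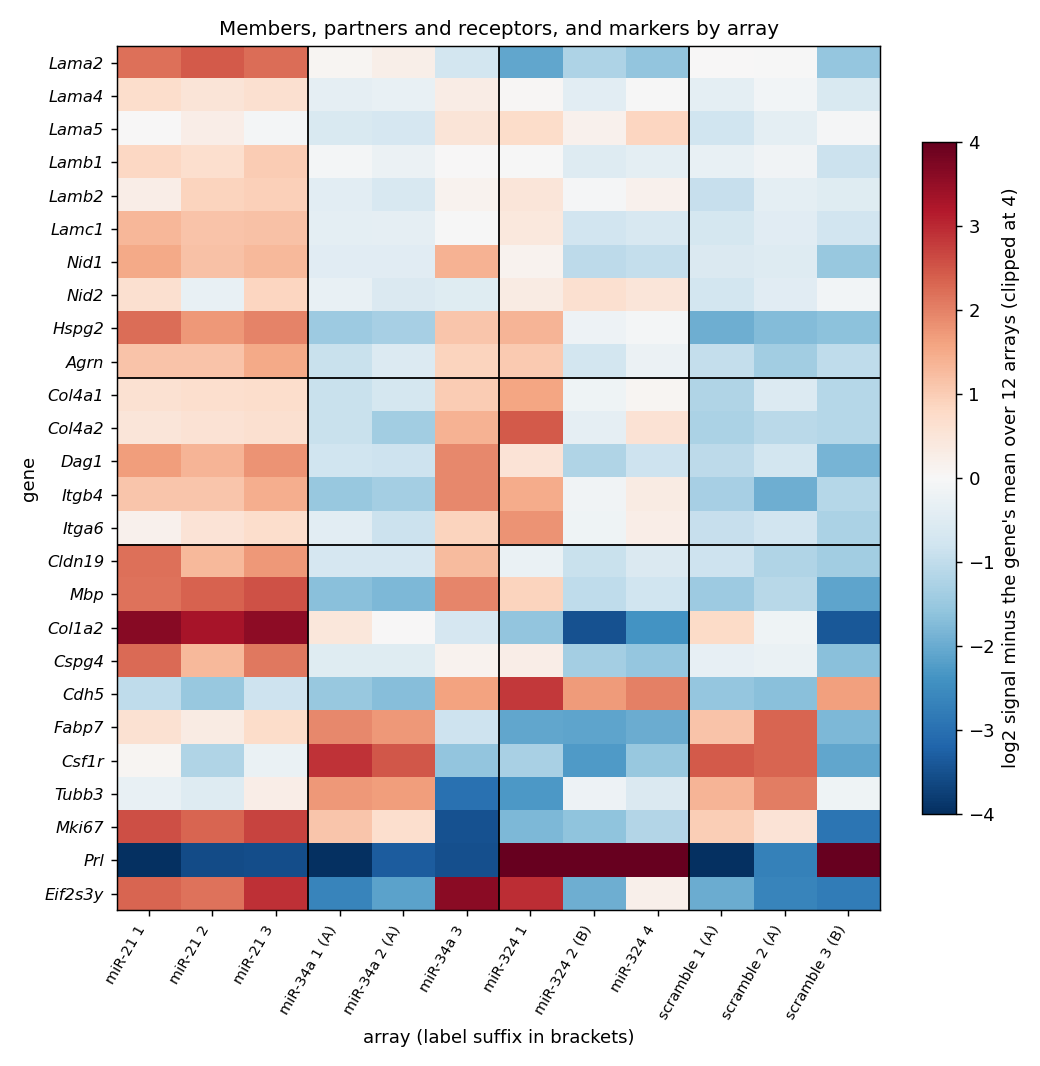
Log2 signal minus each gene's mean over 12 arrays (colour, clipped at 4) for the 10 genes, matrix partners and receptors, and markers (rows, top to bottom) on each array (columns, scramble last, suffix in brackets). Lama2 is low on all 3 miR-324 arrays and on scramble 3. Hspg2 and Agrn are highest on the miR-21 arrays, followed by miR-324 1 and miR-34a 3.

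Markers of other cells moved with the same arrays. Against scramble, all 6 measured markers of myelinating Schwann cells averaged higher with miR-21, with a median of 1.88. Of them 2 passed, against 0.685% of all genes that rose: Cldn19, a tight junction gene, at 2.88 ± 0.45 (SE, adjusted p = 0.0172) and Mbp, a myelin gene, at 3.90 ± 0.82 (SE, adjusted p = 0.0457). The summed signal of all 6, as log2, lay at 16.97 to 17.37 on the miR-21 arrays, at 16.31 to 16.70 on the miR-34a arrays, at 14.87 to 15.22 on the miR-324 arrays and at 15.11 to 16.69 on the scramble arrays. Such sums, here and below, weigh the brightest genes most, in this list Pmp22, at 14.28 to 16.93 over the 12 arrays. The median of the 6 was 11.49, 11.305 and 11.45 on the miR-21 arrays and 8.315, 8.26 and 11.09 on the miR-34a arrays. It was 9.8, 8.33 and 8.8 on the miR-324 arrays and 8.35, 8.335 and 7.735 on the scramble arrays. By the median miR-34a 3 was the highest miR-34a array, and by the sum the lowest. Among 7 fibroblast markers Col1a2 passed, at 4.45, and among 9 mural cell markers Cspg4, at 2.65, with adjusted p of 0.0291 and 0.0295. Those lists, Col1a2 and Cspg4 included, went both ways: 3 fibroblast markers averaged higher and 4 lower, with a median of -0.05, and 5 mural markers higher and 4 lower, with a median of 0.16. Cell markers were called also in miR-324 cultures against miR-21, where 4 of 7 endothelial markers rose, with a median of 3.51 over the list. Over all 19572 genes 481 were called there in either direction, and 257 of them fell, 1.31% of all genes. In that comparison 2 of 6 markers of myelinating Schwann cells fell, with a median of -2.18, as did 2 of 7 fibroblast markers, Col1a2 by 6.00 and Col1a1 by 4.66 on the log2 scale, and Cspg4 among the mural markers. Prl, of 7 pituitary markers, was 11.04 higher there (adjusted p = 0.0186). Their part in the falls of Lama2, Lamb1 and Lamc1 was not tested. Summed fibroblast signal ran between 15.52 and 16.10 with miR-21 and between 15.69 and 17.13 with scramble. In it Dcn averaged 13.29 with miR-21 and 15.94 with scramble, and Col1a2 15.31 and 10.86. Mural signal ran between 17.33 and 17.36 with miR-21 and was 15.29, 15.30 and 10.76 on scramble 1, 2 and 3. With miR-21 its brightest genes were Tagln, at 16.52 to 16.62, and Acta2, at 15.80 to 16.03. On scramble 1, 2 and 3 Tagln was at 12.94, 12.93 and 6.71 and Acta2 at 14.55, 14.30 and 8.12. The median of the 9 mural markers was 7.23, 6.41 and 6.87 with miR-21 and 7.92, 7.96 and 6.57 with scramble. Of the defining markers that were measured, Csf1r of macrophages was at 5.11 to 6.39 with miR-21 and at 4.05 to 5.03 with miR-324, against 4.24 to 8.76 with scramble, and Pdgfrb of mural cells ran between 12.02 and 12.39 with miR-21, against 9.76 to 13.50 with scramble.

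The neuronal label of the cultures was checked in the same way. Tubb3, which marks neurons, ran between 10.15 and 15.18 over the 12 arrays, and all 8 neuronal markers averaged lower with miR-21, with none called. Their summed signal was 16.09 to 16.75 with miR-21, 14.84 to 18.22 with miR-34a, 14.55 to 16.98 with miR-324 and 17.36 to 18.40 with scramble. Endothelial signal was 13.86 to 14.53 with miR-21 and 16.72 to 18.22 with miR-324, against 14.03 to 16.49 with scramble, macrophage signal 8.15 to 8.34 with miR-21, against 7.31 to 11.67 with scramble, and satellite glial signal 14.70 to 14.98 with miR-21, against 12.42 to 15.09 with scramble. Cdh5, which defines endothelium, was at 12.45 to 13.12 with miR-21, against 12.28 to 15.59 with scramble, and Fabp7 of satellite glia at 10.18 to 10.57 with miR-21, against 8.06 to 12.17 with scramble. The part of this mix of cells in the results was not tested.

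The genes closest to each member in centred profile over the 12 arrays, by root mean square difference among 18490 named genes, are given as a description. Lama4 lay 0.14 from Fermt2, Lamb2 0.14 from Iffo2, Lamb1 0.15 from Anxa2 and Lama5 0.17 from Zfp609. Nid1 lay 0.22 from Gria3, Nid2 0.22 from Vxn, Lamc1 0.24 from Aif1l and Agrn 0.24 from Ptpn21. Hspg2 and Lama2, which had the widest ranges over the arrays at 4.17 and 4.53, had the farthest nearest genes, Fam102a at 0.47 and Slit3 at 0.48. Within the family the closest pair was Lama4 and Lamb1, at 0.22, and the farthest was Lama2 and Lama5, at 1.75. Lama2 lay 1.05 or more from every other member, and no other member had so distant a nearest member. The second nearest genes were Clec16a for Lama4, Vat1 for Lamb2, Ncln for Lamb1, Tent4b for Lama5, Mfap3l for Nid1, Ccdc22 for Nid2, Nexn for Lamc1, Myh9 for Agrn, Sh3bp5 for Hspg2 and Iqgap2 for Lama2, at 0.15 to 0.52.

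Promoters are shown for the gene with the largest rise and for the 2 called chains that RefSeq's table holds, as 250 bases before to 50 after the start on GRCm38.p6, with capitals on GGGCGG on either strand.
Hspg2, chr4:137468553-137468852, plus strand: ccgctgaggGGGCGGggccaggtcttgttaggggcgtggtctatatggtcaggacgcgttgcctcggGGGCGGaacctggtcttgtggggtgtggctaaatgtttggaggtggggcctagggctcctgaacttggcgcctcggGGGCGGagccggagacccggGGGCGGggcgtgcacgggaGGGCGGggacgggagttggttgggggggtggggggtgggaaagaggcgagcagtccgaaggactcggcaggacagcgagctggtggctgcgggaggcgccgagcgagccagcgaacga
Lama2, chr10:27616893-27617192, minus strand: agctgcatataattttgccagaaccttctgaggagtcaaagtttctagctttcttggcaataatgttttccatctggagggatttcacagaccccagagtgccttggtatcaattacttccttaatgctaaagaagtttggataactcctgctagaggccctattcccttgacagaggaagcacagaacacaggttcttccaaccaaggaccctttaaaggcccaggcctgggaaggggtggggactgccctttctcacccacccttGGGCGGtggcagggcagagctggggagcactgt
Lamb1, chr12:31265043-31265342, plus strand: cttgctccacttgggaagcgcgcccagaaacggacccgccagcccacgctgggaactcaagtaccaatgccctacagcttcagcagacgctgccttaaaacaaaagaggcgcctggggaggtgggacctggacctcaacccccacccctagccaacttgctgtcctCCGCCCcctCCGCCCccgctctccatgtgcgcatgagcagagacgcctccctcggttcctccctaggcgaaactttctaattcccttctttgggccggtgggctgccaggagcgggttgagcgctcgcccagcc
GGGCGG was found 5 times in the Hspg2 window, 1 time in that of Lama2 and 2 times in that of Lamb1, with overlaps counted, and 35.7% of 32851 promoters of this length hold it. GC content was 70.3% in Hspg2, 50.3% in Lama2 and 63.7% in Lamb1, against a median of 52.7% over all promoters. TATAAA was in none of the 8 windows of the 7 members with an entry and is in 13.6% of all promoters. ACAAAG was in both Agrn windows and no other, against 18.7% of all promoters, and CANNTG was in the windows of Lama2 and Lamb1 and not of Hspg2, against 72.3%.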

How the data were processed

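Total RNA of 12 TG neuron cultures was measured on Clariom S Mouse arrays. Values were deposited by the authors as log2 signals made with RMA in Transcriptome Analysis Console 4.0, per the submitters' processing notes; arrays limit the precision by their number, 3 per group. The 22206 probes were named through the platform annotation, 19572 with 1 symbol, 0 with several and 2634 with none, and the named probes were tested. Groups were compared with limma 3.58.1 in R 4.3.3 (lmFit on all 12 arrays, eBayes, two-sided), adjusted by Benjamini-Hochberg over all named probes at 0.05, and the fit was tested on simulated data. No replicate block was used. Array medians lay between 5.91 and 6.06, and no pair of arrays was identical. The 10 members, the lists and the tests were chosen with earlier results of these data known. Named genes are every member, the 2 nearest profiles of each, up to 4 called genes of each list and a fixed set of markers. RefSeq sequences were matched by symbol. Alternatives were other scaling, probe filters, blocks, a covariate and left-out arrays. Some listed markers are not reported here.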

Additional observations from a re-analysis of the deposited data

Results flagged for a closer look

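Differences between microRNAs were tested directly, and 4 passed. Lama2 differed by -2.43 on the log2 scale in miR-34a cultures against miR-21 and by -3.92 in miR-324 cultures against miR-21. Lamb1 differed by -1.16 and Lamc1 by -1.55 in miR-324 cultures against miR-21. These comparisons share the miR-21 arrays, none of which has a suffix, while miR-34a 1 and 2 and miR-324 2 have one. On the arrays without a suffix, Lama2 was at -3.01 with miR-34a and at -4.12 with miR-324, both called, and Lamb1 was at -1.06 and Lamc1 at -1.34 with miR-324, neither called. On all 12 arrays with the suffix as a fixed or as a random block, all 4 differences were called, at -3.29 and -2.81 for Lama2 with miR-34a, -3.98 and -3.95 for Lama2 with miR-324, -1.0 and -1.09 for Lamb1 and -1.35 and -1.46 for Lamc1.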

How the results depend on the processing

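Counts of genes called and of members called (in brackets) moved by over 1.5 times in these fits, and the cause was not tested beyond each fit's own construction. For miR-21 against scramble, 204 (5) became 310 (8) on bright probes only, 906 (8) with only the groups compared, 684 (1) with the suffix as a fixed block, 34 (1) as a random block and 89 (2) with Eif2s3y as a term. For miR-34a against miR-21, 31 (1) became 47 on bright probes, 1004 with the fixed suffix block, 169 (2) with Eif2s3y and 418 on arrays without a suffix, an alternative chosen after seeing the data. For miR-324 against miR-21, 481 (3) became 1043 (5) with only the groups compared, 1354 with the fixed and 803 with the random suffix block, 1192 with Eif2s3y and 863 on arrays without a suffix. For miR-34a against miR-324, 0 became 1 with only the groups compared and 2 on arrays without a suffix. With the label number as a replicate block, 2 (0) genes were called for miR-21 against scramble, 5 (0) for miR-34a against miR-21 and 23 (1) for miR-324 against miR-21. Scramble 3 repeats the number 1. Correlations of the 16 same-numbered pairs ran between -0.64 and 0.73, with 2 over 0.1, and 3 of 12 arrays fitted best with their own number. Those 2 pairs, at 0.70 and 0.73, lie within suffix A, where the different-numbered pairs of miR-34a and scramble were at 0.71 and 0.71. This check does not show pairing by number and cannot exclude it, as the pairs over 0.1 also share suffix A. The arrays without a suffix did not go together throughout. Of these, miR-324 4 was at 0.50 with scramble 3, which has suffix B, against 0.55 for the pair within suffix B. With the miR-21 arrays, which have no suffix either, miR-324 4 was at -0.41 to -0.22. Leaving out 1 array gave 11 to 81 genes and 0 to 4 members for miR-21 against scramble, 0 to 0 for miR-34a against scramble, 0 to 383 and 0 to 1 for miR-324 against scramble, 2 to 537 and 0 to 6 for miR-34a against miR-21, 86 to 402 and 1 to 4 for miR-324 against miR-21 and 0 to 801 and 0 to 3 for miR-34a against miR-324. No member called in the main fit of a comparison changed sign in any other fit of it. Differences not called in the main fit that changed sign follow. With the fixed suffix block, Lama5 was -0.51 (miR-21 against scramble), -0.057 (miR-34a against scramble) and 0.45 (miR-34a against miR-21), Nid2 0.086 (miR-34a against scramble) and -0.049 (miR-324 against miR-21), Lama4 -0.057 and Nid1 -0.50 (miR-324 against scramble), and Agrn 0.39 (miR-34a against miR-324). With the random suffix block, Nid2 was 0.021 (miR-34a against scramble), Nid1 -0.075 (miR-324 against scramble), Lama5 0.022 (miR-34a against miR-21) and Agrn 0.050 (miR-34a against miR-324). With Eif2s3y, Lama5 was -0.27 (miR-21 against scramble), -0.16 (miR-34a against scramble) and 0.11 (miR-34a against miR-21), Nid2 0.024 (miR-34a against scramble), Lama4 -0.049, Lamb1 -0.057, Lamc1 -0.028 and Nid1 -0.58 (miR-324 against scramble), and Agrn 0.028 (miR-34a against miR-324). Within suffix A, Lama4 was -0.07, Lama5 -0.05 and Nid2 0.15 (miR-34a against scramble). Within suffix B, 1 array against 1, Lama2 was 0.32 (miR-324 against scramble), against -1.11 on all arrays. On arrays without a suffix, Lama5 was 0.45 and Nid1 0.077 (miR-34a against miR-21), Nid2 -0.017 (miR-324 against miR-21), and Hspg2 0.48 and Agrn 0.49 (miR-34a against miR-324). For miR-34a against miR-324, quantile normalization again gave Lama4 -0.21 and Lamc1 -0.083, and the replicate block Lama4 -0.035 and Lamc1 -0.13. With 1 array left out, these uncalled differences had both signs, given as lowest to highest. For miR-34a against scramble they were Nid2 -0.18 to 0.13, Lama5 -0.23 to 0.36, Lama2 -0.14 to 0.67. For miR-324 against scramble they were Lamb1 -0.10 to 0.26, Lamc1 -0.065 to 0.52, Nid1 -0.13 to 0.47. For miR-324 against miR-21 they were Nid2 -0.29 to 0.30. For miR-34a against miR-324 they were Agrn -0.75 to 0.30, Lama4 -0.19 to 0.14, Lamc1 -0.14 to 0.45. The median of all genes in miR-21 against scramble was 0.13, 0.03 after quantile normalization again and 0.10 after median centring. With 3 arrays a group, small differences cannot be seen.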
